A study of Arabidopsis thaliana with 24 samples.

Results

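Over the subjective morning in constant light, most morning genes of the circadian clock fell in leaves and most of its afternoon and evening genes rose. The comparison set true leaves from seedlings of Arabidopsis thaliana (Col-0) at ZT102, subjective midday, against those at ZT98, subjective early morning. ZT counts hours since transfer to constant light. It rests on 4 of the 24 libraries of the series, 2 at each time point, chosen by their tissue and time labels, and the spread was taken from all 12 leaf libraries. All plants were of the genotype Col-0, grew for 14 days at 22 °C in cycles of 12 h light (about 100 µmol m-2 s-1) and 12 h darkness, and then stood in constant light of about 60 µmol m-2 s-1. Each library came from pooled tissue of 6 to 10 seedlings that were frozen and dissected, and the labels name 2 independent experiments without saying which replicate belongs to which. The deposited columns carry mock in their names, although no treatment is given by the labels. The shoot apex of the same collections, with 2 libraries at each of the same time points, served as the tissue for comparison.

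The plant clock is a loop of repressors and activators that take turns through the day. CCA1 and LHY, a pair of MYB-like factors made around dawn, hold down genes of the afternoon and evening by binding a short promoter sequence called the evening element. The related factor RVE8 and its LNK partners activate the same genes. PRR9, PRR7, PRR5 and TOC1 then shut CCA1 and LHY down in turn, and the evening complex of ELF3, ELF4 and LUX acts at dusk. In leaves this clock times photosynthesis, starch turnover, pigment synthesis and growth.

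The values are FPKM (fragments, here single reads, scaled to gene length and library size). Levels can thus be compared between genes, except where reads may be shared by gene copies or overlapping genes. The 4 libraries held 11300000 to 14800000 reads as estimated from the steps between low FPKM values. The tissue label was checked against marker genes, and CLV3 and WUS, markers of the stem cell niche, were at 0 in all 4 leaf libraries. The summed FPKM of 8 shoot apex markers was 2.67 to 4.09 in these leaves against 148 to 193.3 in the shoot apex at the same time points. The summed FPKM of 5 mitosis markers was 21.8 and 32.1 at ZT98 and 17.9 and 31.8 at ZT102. Summed FPKM of 5 mesophyll markers ranged from 21130 to 24140 and that of 6 guard cell and phloem markers from 186.5 to 223. Of these markers CA1 and RCA fell, neither of them after rescaling the libraries, and none was called as higher by limma, with 1 mesophyll marker higher at an unadjusted p under 0.05. Of the 133 genes named by rule, 36 overlap another annotated gene, 33 on the other strand and 3 on the same strand. As the use of strand in counting is not stated, reads of such pairs cannot be told apart and these values are uncertain in part. Among called genes this holds for AT5G23240 and AT5G23235, FKF1, AT1G56300, AT4G30660, CHS, F3H, RHM1, AO, LNK2, LNK3, ELF3, LUX, CAT2, BBX25, RCA, PORB, NPQ1, BCH2, PSY, OHP, BAM3, SBE2.1, ISA1, GLU1, IMD1, AT4G33625 and AT3G02560 on the other strand, and for PHS2, LNK4 and FIB1 on the same strand. In pooled tissue, a change in the number of cells of a type and a change in RNA per cell cannot be told apart.

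Of 18200 genes tested, 667 rose (3.66%) and 1219 fell (6.7%) from ZT98 to ZT102 at a limma adjusted p under 0.05. At least 2-fold changes, a log2 change of 1 or more in size, were found in 114 genes that rose (0.626%) and 86 that fell (0.473%). All 1886 called genes moved the same way in both replicates, which the call itself largely fixes, since it rests on the mean change of both. Before adjustment, 4385 genes had a p under 0.05. The median log2 change of all genes was -0.03. Rescaling the libraries moved that median to 0.01 and the split to 854 genes that rose and 1022 that fell, so that risers made up 45.5% of the called genes in place of 35.4%. After rescaling, 1687 of the 1886 genes were called in the same direction. The 10 most abundant genes held 12.7% and 14.2% of all FPKM at ZT98 and 14.7% and 16.2% at ZT102, and the part of this shift in single falls was not tested beyond the rescaling. Leaving out 1 of the 4 libraries lowered the counts to 378 up and 545 down without ZT98 replicate 1, and to 237 and 464 without ZT98 replicate 2. They were 259 and 472 without ZT102 replicate 1, and 249 and 477 without ZT102 replicate 2. A fit without the replicate block called 280 and 593.

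**Figure D1:**
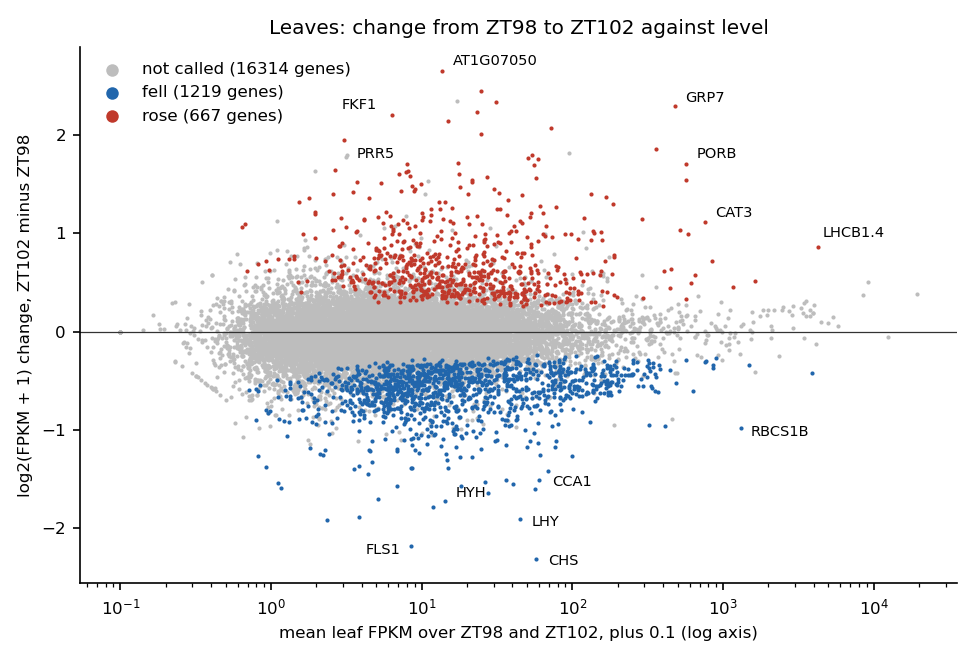
Each point is 1 of 18200 tested genes, with its mean leaf FPKM over ZT98 and ZT102 on a log axis (0.1 added) and its log2(FPKM + 1) change on the vertical axis; 667 red genes rose, 1219 blue genes fell and grey genes were not called. The largest named changes run from AT1G07050 at 2.65 to CHS at -2.31, and abundant genes such as GRP7, PORB and CAT3 are among the risers.

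The genes of the afternoon and evening clock rose together. Of 15 tested members, 11 rose and none fell by limma (0 at an unadjusted p under 0.05), against 3.66% and 6.7% of all tested genes. All 15 had a positive log2 change, with a median of 1.32 against -0.03 over all genes. FKF1, a blue-light receptor that marks proteins for breakdown, led this group. Its FPKM was 1.69 and 1.47 at ZT98 and 10.2 and 11.5 at ZT102, a log2 change of 2.21 ± 0.16 (SE; limma adjusted p = 0.000393). The groups lay far apart, and FKF1 reached its highest mean at ZT106. PRR5, a repressor of CCA1 and LHY, stood at 3.00 and 3.28 and then at 10.5 and 14.8 FPKM, a log2 change of 1.71 ± 0.13. GI, a partner and stabiliser of the FKF1 and ZTL proteins, stood at 3.99 and 4.08 and then at 12.5 and 13.6 FPKM. For both genes the lowest ZT102 value was over every ZT98 value.

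The other members of this group that rose differed in how far from their peak they were. PRR3, a partner of TOC1, rose by a log2 1.52 ± 0.14, and JMJD5, a demethylase-like clock gene, by 1.42 ± 0.14. TOC1, the repressor that closes the sequence of PRR genes, was at 6.599 and 5.05 FPKM at ZT98 and at 13.6 and 14.3 at ZT102. Its log2 change of 1.14 ± 0.13 was only the start of its course, with a mean of 13.9 FPKM at ZT102 and 38.9 at ZT106. The 3 genes of the evening complex rose by log2 1.32 ± 0.20 (ELF4), 1.24 ± 0.19 (LUX) and 0.77 ± 0.12 (ELF3). COR27, a cold-induced repressor of clock genes, went from 0.618 and 0.862 to 4.46 and 4.37 FPKM. AT4G33980, entered in this list as COR28, rose by a log2 1.399 ± 0.16. Both groups of COR27 values lie low on the FPKM scale, where adding 1 before the log understates a fold change. The members that did not pass were BOA at 0.42 ± 0.18, LKP2 at 0.31 ± 0.10, TCP21 at 0.28 ± 0.11 and ZTL at 0.11 ± 0.08. ZTL, an F-box protein close to FKF1, held 15.967 and 15.3 FPKM at ZT98 and 17.593 and 16.3 at ZT102. None of the 15 changes differed from the shoot apex at a limma adjusted p under 0.05, and 7 did at an unadjusted p under 0.05.

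Promoters of strong risers often held the evening element. The motif was searched as AAATATCT on both strands in the 250 bases before each annotated gene start. It was found in 34.2% of the 114 genes that rose at least 2-fold, in 16.9% of all 667 risers, in 3.37% of the genes that fell and in 5.02% of all tested genes. The promoters of the risers FKF1 and GRP7 are shown because each holds more than 1 copy. Their sequences are from RefSeq (TAIR10.1), 5′ to 3′ on the strand of the gene, at chr1:25508389-25508638 (FKF1, plus strand) and chr2:9266558-9266807 (GRP7, minus strand). Capitals mark the evening element or its reverse complement and, in GRP7 at its first 2 capital runs, the reverse complement of TGGGCC, a site II element.
FKF1: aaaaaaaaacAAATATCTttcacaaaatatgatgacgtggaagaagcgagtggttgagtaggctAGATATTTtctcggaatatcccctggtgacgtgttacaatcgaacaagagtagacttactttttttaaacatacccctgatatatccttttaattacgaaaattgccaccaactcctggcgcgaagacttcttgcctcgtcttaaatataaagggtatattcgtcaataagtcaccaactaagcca
GRP7: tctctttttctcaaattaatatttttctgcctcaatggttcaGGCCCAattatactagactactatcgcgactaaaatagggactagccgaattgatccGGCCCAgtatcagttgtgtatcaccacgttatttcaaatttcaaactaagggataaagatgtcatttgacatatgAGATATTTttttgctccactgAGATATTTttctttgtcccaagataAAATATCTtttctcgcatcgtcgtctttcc
FKF1 held 2 evening elements and GRP7 3. A match describes letters and shows no binding. GI held no match to it in this window although its transcript rose.

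The morning genes of the clock fell over the same interval. Of 14 tested members, 8 fell and 1 rose, against 6.7% and 3.66% of all tested genes, with a median log2 change of -0.91. LHY stood at 70.7 and 71.1 FPKM at ZT98 and at 17.9 and 18.3 at ZT102, a log2 change of -1.91 ± 0.15 (limma adjusted p = 0.000423). CCA1 went from 82.5 and 97.5 to 29.0 and 32.8 FPKM, a log2 change of -1.51 ± 0.15. The values of the 2 time points did not overlap for either gene. LHY had its highest mean at ZT94 and CCA1 at ZT98, and both were lowest at ZT106, where their means were 3.25 and 4.87 FPKM. RVE8 fell by a log2 1.57 ± 0.15, from 27.9 and 27.4 to 8.29 and 9.03 FPKM. RVE1, a regulator of auxin synthesis related to CCA1, fell by 1.38 ± 0.19, and RVE2 by 0.96 ± 0.21. The LNK genes fell less steeply, LNK4 by 0.95 ± 0.17, LNK2 by 0.92 ± 0.18 and LNK3 by 0.89 ± 0.12. LNK1 at -0.42 ± 0.13, RVE4 at -0.26 ± 0.13, AT5G52660 at -0.10 ± 0.15 and RVE7 at 0.37 ± 0.21 did not pass. Without ZT98 replicate 2, or without ZT102 replicate 2, the count of morning genes that fell was 5.

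PRR7 was the single morning-list member that rose. It stood at 23.96 and 26.0 FPKM at ZT98 and at 41.2 and 44.9 at ZT102, a log2 change of 0.76 ± 0.13, and ZT102 was the time point of its highest mean. The call was lost without ZT98 replicate 1 and without ZT102 replicate 2. PRR9, the first PRR gene of the day, held 4.099 and 4.54 FPKM at ZT98 and 3.71 and 4.89 at ZT102, with a log2 change of -0.01 ± 0.20 that did not pass and turned positive on rescaling, 0.03. The PRR genes thus stood in order, with the highest leaf mean at ZT98 for PRR9, at ZT102 for PRR7 and at ZT106 for PRR5, PRR3 and TOC1. The means of PRR9 at ZT98 and ZT102, 4.32 and 4.299 FPKM, did not differ beyond their spread.

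**Figure D2:**
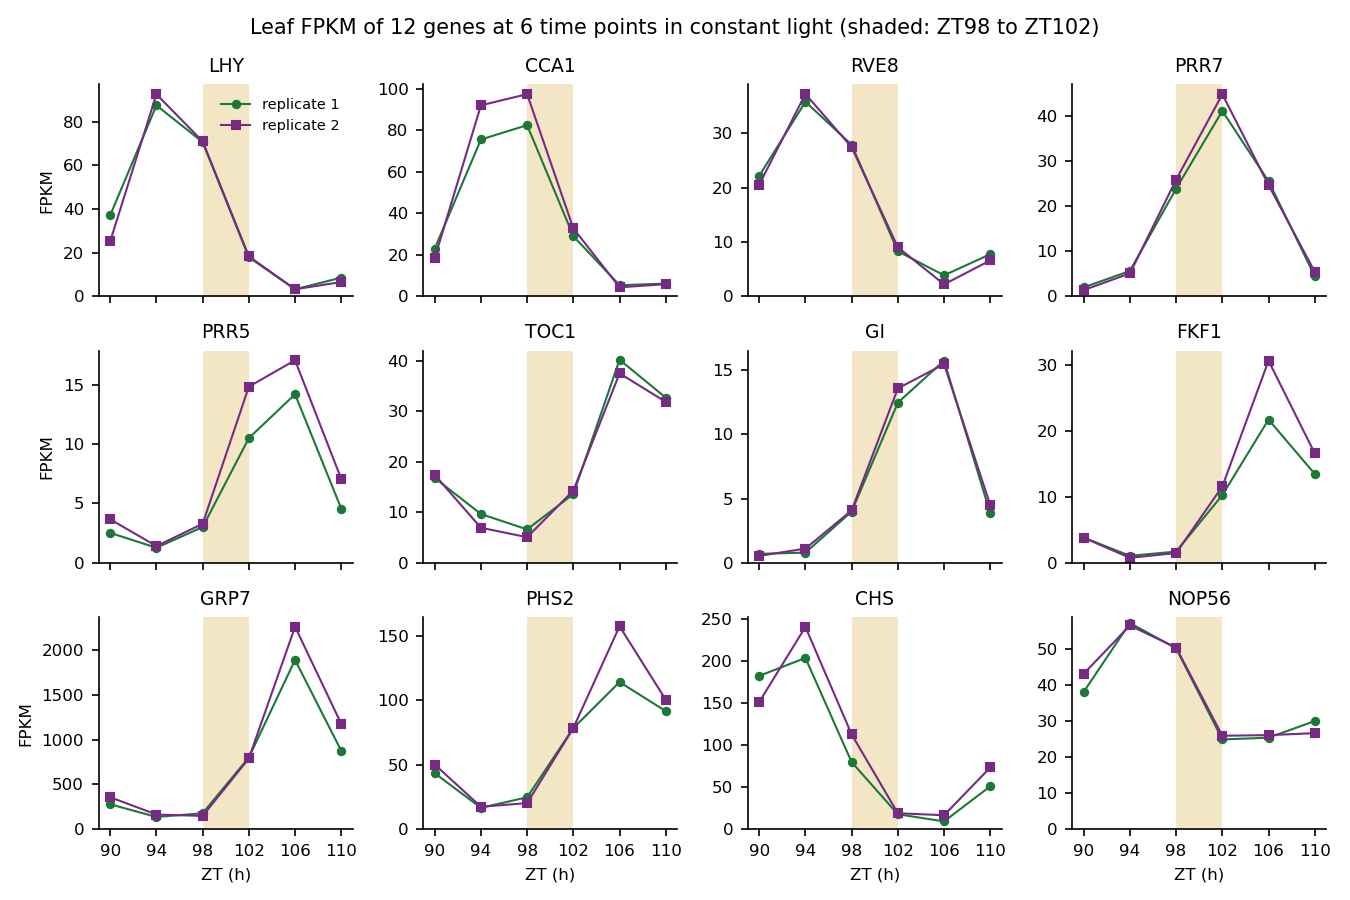
Leaf FPKM (vertical axis) of 12 genes at the 6 time points (horizontal axis, h), with 1 line for each replicate and the ZT98 to ZT102 interval shaded. LHY, CCA1, RVE8, CHS and NOP56 fall within the shaded interval, PRR7 peaks at its end, and PRR5, TOC1, GI, FKF1, GRP7 and PHS2 are still rising and highest at ZT106.

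Genes that carry the clock signal outward changed in both directions. Of 14 tested members of the clock output and photoperiod list, 3 rose and 5 fell, against 3.66% and 6.7% of all tested genes. GRP7, a glycine-rich RNA-binding protein that acts on its own transcript, stood at 176.6 and 147.4 FPKM at ZT98 and at 800.3 and 789.5 at ZT102, a log2 change of 2.29 ± 0.15 (limma adjusted p = 0.00031). Its relative GRP8 rose by 1.002 ± 0.09. The catalases, enzymes that break down hydrogen peroxide, moved apart. CAT3 went from 473.9 and 480.9 to 1077 and 1002 FPKM, a log2 change of 1.12 ± 0.11, while CAT2 fell from 398.5 and 458.4 to 202.6 and 239.1 FPKM, by a log2 0.95 ± 0.18. By FPKM, CAT3 was thus above CAT2 at both time points, and the margin grew, although CAT2 overlaps a gene on the other strand. CDF2, a DOF factor that represses CO, fell by 0.99 ± 0.12, and the B-box genes BBX18, BBX25 and BBX19 fell by 1.03 ± 0.12, 0.73 ± 0.13 and 0.64 ± 0.13. CDF1 at -0.36 ± 0.10, AT1G69570 at -0.48 ± 0.16, CDF3 at -0.11 ± 0.16 and BBX24 at -0.05 ± 0.10 did not pass. The flowering regulator CO stayed between 1.52 and 1.97 FPKM and its target FT between 0.18 and 0.366 FPKM in the 4 libraries. Without ZT98 replicate 2 or ZT102 replicate 1, 2 of the list fell, and without ZT102 replicate 2, 3 did.

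Among the genes with the largest rises were several outside the fixed lists. AT1G07050, annotated as a CCT motif family protein, had the largest rise of genes with a mean of at least 10 FPKM. It stood at 3.48 and 2.58 FPKM at ZT98 and at 24.3 and 23.9 at ZT102, a log2 change of 2.65 ± 0.21 (limma adjusted p = 0.000423), and its change in the shoot apex was 2.74. A pair of genes for low temperature and salt responsive family proteins rose, AT4G30650 by 2.44 ± 0.33 and AT4G30660 by 2.01 ± 0.11. A pair of DnaJ-domain chaperone genes rose, AT5G23240 by 2.33 ± 0.25 and AT1G56300 by 2.15 ± 0.11. AT5G23235 rose by 2.23 ± 0.21 and is the overlapping partner of AT5G23240. AT2G33830, a dormancy and auxin associated family gene, went from 21.2 and 33.4 to 98.4 and 134.1 FPKM, and CCL from 187.7 and 127.5 to 598.8 and 527.3. AT3G62550, an adenine nucleotide alpha hydrolase-like gene, rose by 1.80 ± 0.25.

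Starch breakdown was the metabolic list with the most risers. Of 17 tested members 10 rose and 1 fell, against 3.66% and 6.7% of all tested genes, with a median log2 change of 0.81. GWD1 and PWD, the kinases that phosphorylate starch granules before they are degraded, rose by 1.34 ± 0.14 and 1.397 ± 0.12. PHS2, a cytosolic glucan phosphorylase, stood at 24.7 and 20.2 FPKM at ZT98 and at 78.5 and 78.6 at ZT102, a log2 change of 1.77 ± 0.14 (limma adjusted p = 0.000462). The values at ZT102 were all above those at ZT98, and the highest mean followed at ZT106. AMY3, a chloroplast alpha-amylase, rose by 1.07 ± 0.08, and DPE1, which recycles maltotriose, by 1.32 ± 0.16. ISA3, a debranching enzyme, rose by 1.603, SEX4, a glucan phosphatase, by 1.07, PHS1 by 1.07, DPE2 by 0.81 and the debranching enzyme LDA by 0.62. BAM3, the main maltose-forming beta-amylase of leaf chloroplasts, went the other way, from 168.2 and 159.2 to 121.5 and 110.8 FPKM. Its fall, 0.49 ± 0.12 on the log2 scale, was not called after rescaling (-0.44, adjusted p = 0.0699) or without the block, nor without any 1 of the 4 libraries of the contrast. The genes BAM1, BAM2, BAM4, LSF1, LSF2 and MEX1 lay between -0.15 and 0.17 and were not called.

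Genes of starch synthesis were split. Of 16 tested, 4 rose and 1 fell, against 3.66% and 6.7% of all tested genes, with a median of 0.02. GBSS1, the granule-bound synthase that makes amylose, fell from 40.2 and 44.4 to 13.0 and 12.6 FPKM, by a log2 1.65 ± 0.17 (limma adjusted p = 0.00105), and was lowest at ZT106. The branching enzyme SBE2.1 rose by 0.94 ± 0.11 and the granule-initiating synthase SS4 by 0.88 ± 0.12. PGM1 at 0.37 ± 0.10 and ISA1 at 0.36 ± 0.09 rose by less. Without any 1 of the 4 libraries of the contrast, and also without any 1 of the ZT90 or ZT110 libraries, the count of risers was 2.

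Flavonoid genes fell with the morning clock genes. Of 20 tested members of the flavonoid and anthocyanin list, 11 fell and none rose by limma (1 at an unadjusted p under 0.05). Over all tested genes 6.7% fell and 3.66% rose. The median log2 change of the list was -0.67. After rescaling 1 rose, MYBL2. CHS, the entry enzyme of the pathway, had the largest fall of the named genes. It stood at 79.7 and 112.8 FPKM at ZT98 and at 17.7 and 18.9 at ZT102, a log2 change of -2.31 ± 0.21 (limma adjusted p = 0.000683). FLS1, the enzyme that makes flavonols, went from 11.7 and 17.1 to 1.59 and 3.34 FPKM, and CHIL, a chalcone isomerase-like partner of CHS, from 18.1 and 19.3 to 5.23 and 4.21. For all 3 genes each ZT102 value was under each ZT98 value. F3H fell by 1.39 ± 0.15. 4CL3, which feeds the pathway, fell by 1.396 ± 0.13 and RHM1, which makes the rhamnose donor for flavonol glycosides, by 0.78 ± 0.08. The glycosyltransferases UGT78D2 and UGT78D1 fell by 0.85 and 0.82, and PAL1, the first enzyme of phenylpropanoid synthesis, by 0.81. The late anthocyanin genes DFR and LDOX held means of 1.85 and 2.11 FPKM at ZT98 and 0.602 and 0.98 at ZT102, and were not called. MYBL2, a repressor of anthocyanin genes, had a log2 change of 0.71 (adjusted p = 0.0542). CHIL was named for the size of its fall and is no member of the list. The other large falls outside the lists were those of AO, the aspartate oxidase that opens NAD synthesis, by 1.57 ± 0.14, of AT5G49480, annotated as a calcium-binding protein, by 1.55 ± 0.13, and of the uncharacterized genes AT1G65490, at -1.602 ± 0.17, and AT1G68238, at -1.53 ± 0.24.

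The CHS promoter is shown because CHS fell and its promoter holds both a G-box and an evening element. It lies at chr5:4488226-4488475 (TAIR10.1, RefSeq, plus strand), and capitals mark, in this order, the G-box CACGTG and the evening element AAATATCT.
CHS: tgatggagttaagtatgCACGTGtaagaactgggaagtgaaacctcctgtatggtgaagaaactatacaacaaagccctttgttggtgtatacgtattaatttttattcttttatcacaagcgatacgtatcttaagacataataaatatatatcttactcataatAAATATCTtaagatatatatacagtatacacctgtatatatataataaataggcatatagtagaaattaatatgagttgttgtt
The G-box was found in 8.05% of the genes that fell and 8.40% of those that rose, against 7.21% of all tested genes. At 2-fold or more these shares were 15.1% and 14.0%, so the motif was about as frequent in both directions. LHY and CCA1 each held 1 G-box in the same window. CHS, which fell, thus held the same 8 letters as the risers FKF1 and GRP7.

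The light-signalling factors HYH and HY5, bZIP activators of CHS and other light-induced genes, both fell. HYH stood at 24.3 and 20.6 FPKM at ZT98 and at 6.43 and 5.74 at ZT102, a log2 change of -1.72 ± 0.11 (limma adjusted p = 0.00031). HY5 fell by 0.71 ± 0.15 from 6.09 and 4.43 FPKM. UNE10, a member of the phytochrome-interacting family, fell by 1.16 ± 0.11. PIF4, a growth-promoting member of that family, rose by 0.55 ± 0.07, from 35.5 and 41.7 to 52.4 and 61.4 FPKM, and was highest at ZT102. ATHB2, a homeobox gene of shade responses, rose by 0.58 ± 0.12. In all, 2 of 11 tested light growth factors rose and 3 fell, against 3.66% and 6.7% of all tested genes. Without any 1 of the 4 libraries of the contrast, the count of risers in this list was 1.

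Against 3.66% up and 6.7% down over all tested genes, 1 of 11 photoreceptor genes fell and 4 rose. These were the UV-B receptor UVR8 (0.62 ± 0.09), the blue-light receptors PHOT1 (0.55 ± 0.10) and CRY2 (0.38 ± 0.07) and the far-red receptor PHYA (0.38 ± 0.10), all as log2 changes. CRY3, an organellar cryptochrome, fell by 0.68 ± 0.10. PHYA went from 17.7 and 18.5 to 23.0 and 24.7 FPKM, a small shift that kept its call in 2 of 12 fits with a library left out. Without any 1 of the 4 libraries of the contrast, the count of risers was 1 or 2.

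Photosystem, antenna and Calvin cycle genes differed in their calls. None of 27 genes for photosystem cores and electron transport was called by limma in either direction, with log2 changes from -0.25 to 0.31, and 6 were higher at an unadjusted p under 0.05. Of 20 antenna genes 1 rose and 1 fell, near the 3.66% and 6.7% of all tested genes, and 18 had a positive sign. LHCB1.4 rose by 0.86 ± 0.18, from 2482 and 3653 to 4828 and 6197 FPKM, with reads that may be shared among LHCB1 copies. LHCB4.3 fell from 20.0 and 16.5 to 10.085 and 8.36 FPKM. A fit of the 4 libraries alone called 7 antenna genes as higher, and without any 1 of these 4 the count was 0. Of 21 Calvin cycle genes 7 fell, against 6.7% of all tested genes, among them RBCS1B, a small subunit of Rubisco, by 0.98 ± 0.11, FBA1 by 0.60 ± 0.13 and the Rubisco activase gene RCA by 0.42 ± 0.10, which was not called after rescaling (-0.38, adjusted p = 0.107). RBCS1A, the copy with the highest FPKM, held means of 12610 and 12110 FPKM and was not called. Reads may be shared among RBCS copies too, so levels of single copies are uncertain. The count of 7 became 3 after rescaling and 1 or 2 without any 1 of the 4 libraries, and none of the list rose by limma (1 at an unadjusted p under 0.05).

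Pigment genes outside the antenna were called in both directions, where 3.66% of all tested genes rose and 6.7% fell. PORB, which reduces protochlorophyllide in the light, stood at 232.2 and 303.0 FPKM at ZT98 and at 781.0 and 963.5 at ZT102, a log2 change of 1.71 ± 0.09 (limma adjusted p = 0.000159). The other 23 of 25 chlorophyll synthesis genes apart from PORB and PORA were not called. PORA, the related enzyme of dark-grown tissue, had 0.495 and 2.34 FPKM at ZT98 and 2.65 and 5.82 at ZT102, so the replicates of each time point lay far apart, and its call held in 3 of 12 fits with a library left out. Of 15 carotenoid and photoprotection genes 7 fell and 1 rose. NPQ1, the de-epoxidase that makes zeaxanthin in strong light, rose by 0.91 ± 0.10, and BCH2, a carotene hydroxylase, fell by 1.24 ± 0.21. PSY, the entry enzyme of carotenoid synthesis, fell by 0.35 ± 0.07. The count of falls was 0 or 1 with a replicate of ZT98 or ZT102 left out, 4 without either ZT94 library and 1 without the block.

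Nitrogen and glucosinolate genes were among the smaller falls. Nitrate reductase NIA2 went from 515.5 and 568.6 to 282.8 and 271.9 FPKM, a log2 change of -0.96 ± 0.15. NIA1 fell by 1.11 ± 0.28, nitrite reductase NIR1 by 0.82 ± 0.17, glutamate synthase GLU1 by 0.34 ± 0.08 and the plastid glutamine synthetase GLN2 by 0.27 ± 0.07. These were 5 of 13 tested genes of nitrogen and sulfur assimilation, where 6.7% of all tested genes fell. After rescaling 3 were called, without GLU1 (adjusted p = 0.0737) and GLN2 (adjusted p = 0.173), and without the block 1 was. The count was 0 without ZT98 replicate 2 or ZT102 replicate 1, 1 without ZT102 replicate 2 and 3 without ZT98 replicate 1. No gene of the list rose by limma, and 1 did at an unadjusted p under 0.05. All 18 tested genes of aliphatic glucosinolate synthesis, the defence compounds made from methionine, had a negative sign and 12 fell, with a median of -0.58 and 17 lower at an unadjusted p under 0.05. SOT17, a sulfotransferase of the last step, fell by 1.07 ± 0.13, CYP79F1, the first enzyme of the core pathway, by 0.94 ± 0.16, and the transporter BAT5 by 0.79 ± 0.10. The median was -0.44 in replicate 1 and -0.77 in replicate 2. The count was 7 without the block, 4 without ZT98 replicate 1, 3 without ZT98 replicate 2 and 4 without ZT102 replicate 2. Of 7 indolic glucosinolate genes 1 fell, UGT74B1 by 0.37 ± 0.10, and it kept its call in 1 of 12 fits with a library left out and not after rescaling.

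Genes of ribosomes and the nucleolus fell together, where 6.7% of all tested genes fell and 3.66% rose. All 21 tested genes of the ribosome and nucleolus list fell, with a median log2 change of -0.61, and 17 to 21 of them fell in every fit with 1 library left out. NOP56, a core protein of the particles that methylate ribosomal RNA, stood at 50.0 and 50.2 FPKM at ZT98 and at 24.8 and 25.8 at ZT102, a log2 change of -0.96 ± 0.09 (limma adjusted p = 0.000636). FIB1, the methylating enzyme fibrillarin, went from 65.8 and 65.0 to 37.7 and 37.9 FPKM. The replicates lay close together, and the time points did not overlap for either gene. RPL23AB of the large subunit fell by 0.82 ± 0.09, RPL5A by 0.61 ± 0.07, and RPS6A of the small subunit by 0.62 ± 0.06. FIB2 fell by 1.18, AT5G27120, annotated as NOP56-like, by 1.08, and PES, a nucleolar assembly factor, by 0.76.

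Over all genes with a ribosomal protein in their RefSeq product name, a group defined after values were seen, 189 of 348 fell (54.3%) and 2 rose. This match by name, called ribosomal protein genes here, also takes in elongation factor genes such as LOS1 and organelle proteins such as MRPL11. The median log2 change of the 348 was -0.42, or -0.44 and -0.38 in replicates 1 and 2, and -0.37 after rescaling, when 182 fell. Together they took 6.68% and 6.80% of all leaf FPKM at ZT98 and 5.22% and 5.49% at ZT102. At ZT94 they took 6.76% and 7.08%, and from ZT102 to ZT110 their share stayed between 5.22% and 6.00%. Of the 10 whose name marks the plastid or a 30S or 50S subunit, 1 rose, AT5G24490, and 1 fell, RPL3P, with a median of -0.04. Of 78 translation initiation and elongation factors, also grouped by product name after values were seen, 24 fell (17 after rescaling) and 2 rose. Genes such as eEF-1Bb1 are in both groups. Of 59 RNA helicases 13 fell (12 after rescaling) and 1 rose, where 6.7% of all tested genes fell.

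Promoters of these genes were searched for further motifs. The site II element TGGGCC, searched on both strands, was found in 59.3% of the 189 ribosomal protein genes that fell, in 22.0% of the other genes that fell, in 11.5% of the risers and in 17.3% of all tested genes. The telo box AAACCCT was found in 23.8% of the ribosomal protein genes that fell, in 9.52% of the other genes that fell and in 6.46% of all tested genes. Ribosomal protein genes that did not fall were not counted as a set, so these shares cannot tie either motif to the fall. NOP56 and FIB1 are shown because each holds both. Their promoters lie at chr1:20986953-20987202 (NOP56, minus strand) and chr5:21293897-21294146 (FIB1, plus strand) in TAIR10.1 (RefSeq). Capitals mark the telo box, the site II element or its reverse complement and, in FIB1 right after the telo box, the reverse complement of the I-box core GATAAG.
NOP56: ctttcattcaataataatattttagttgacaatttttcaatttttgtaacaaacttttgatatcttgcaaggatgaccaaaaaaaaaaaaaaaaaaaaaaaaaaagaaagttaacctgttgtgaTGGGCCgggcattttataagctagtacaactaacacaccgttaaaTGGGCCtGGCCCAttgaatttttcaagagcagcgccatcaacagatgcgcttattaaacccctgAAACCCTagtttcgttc
FIB1: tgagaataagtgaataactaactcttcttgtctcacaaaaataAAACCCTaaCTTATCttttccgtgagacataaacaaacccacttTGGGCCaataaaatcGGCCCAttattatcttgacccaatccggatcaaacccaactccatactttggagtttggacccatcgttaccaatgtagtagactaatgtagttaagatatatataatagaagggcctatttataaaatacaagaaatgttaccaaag
NOP56 held 3 site II elements and FIB1 2, with 1 telo box each.

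**Figure D3:**
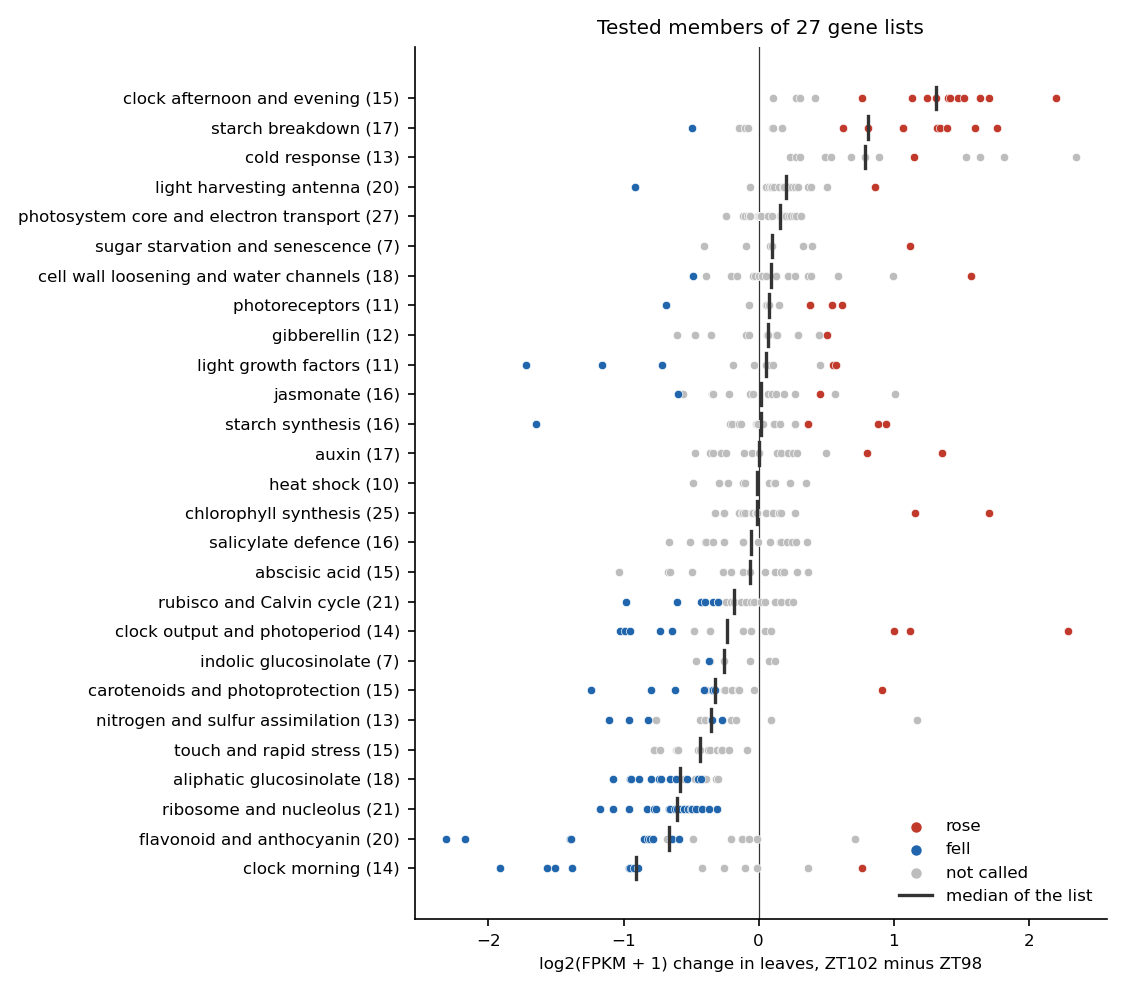
Each point is the log2(FPKM + 1) change (horizontal axis) of 1 tested member of a list, with the number tested in brackets, coloured by call, and a bar marks the median of the list. The clock afternoon and evening list lies highest with a median of 1.32 and the clock morning list lowest with -0.91, and all 21 ribosome and nucleolus genes lie under 0.

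Stress and hormone genes gave few calls, where 3.66% of all tested genes rose and 6.7% fell. A single call in a list of this length is near these shares. All 13 tested cold-response genes had a positive sign, with a median log2 change of 0.78, and only COR413-PM1 was called, at 1.15 ± 0.25, with 6 higher at an unadjusted p under 0.05. COR15B went from a mean of 4.91 to 29.4 FPKM (adjusted p = 0.156) and KIN2 from 41.2 to 148.6 (adjusted p = 0.0579). Leaving out either ZT106 library raised the count to 6, the 4 libraries alone gave 9, and leaving out any 1 of the 4 gave 0. The 15 touch and rapid-stress genes all had a negative fitted change and none was called by limma (2 lower at an unadjusted p under 0.05), and their median was 0.05 for replicate 1 but -1.01 for replicate 2. Heat shock, salicylate and abscisic acid genes were not called by limma in any of 10, 16 and 15 tested members, with 1, 0 and 2 at an unadjusted p under 0.05. In the jasmonate list 1 of 16 rose, AOC4 of jasmonate synthesis at 0.45 ± 0.07, and 1 fell, the repressor JAZ9 at -0.60 ± 0.14, and both calls were lost without either second replicate of the contrast. DRM1 was the riser among 7 sugar starvation genes at 1.12 ± 0.15.

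Few growth genes were called, where 3.66% of all tested genes rose and 6.7% fell. The auxin-induced repressor IAA29 went from 2.35 and 1.63 to 5.69 and 7.70 FPKM, a log2 change of 1.36 ± 0.17, and the auxin exporter PIN7 from 35.1 and 31.8 to 51.6 and 67.8 FPKM. The other 15 of 17 auxin genes were not called. GAI, a DELLA repressor of gibberellin responses, rose by 0.50 ± 0.10, as 1 of 12 tested gibberellin genes. The expansin gene EXPA11, whose product loosens cell walls, went from 13.2 and 13.1 to 38.3 and 44.2 FPKM, while EXPA10 fell by 0.48 ± 0.08. The other 16 genes of the wall and water channel list were not called. The auxin count was 1 without either second replicate of the contrast, and GAI and EXPA11 lost their calls without ZT98 replicate 2 and without either ZT102 library. EXPA10 lost its call without either ZT98 library and without ZT102 replicate 2.

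Most called genes belonged to longer courses. Of the 667 risers, 69.6% had their highest leaf mean at ZT106 and 19.5% at ZT102, and 53.8% had their lowest at ZT94. Of the 1219 genes that fell, 66.4% were highest at ZT94 and 64.3% lowest at ZT102. Among all tested genes 24.6% were highest at ZT106 and 16.6% at ZT94, 8.22% were highest at ZT102, 34.2% were lowest at ZT102 and 3202 of the 18200 lowest at ZT94. The calls themselves fix part of this, since a gene that rose cannot be highest at ZT98 or lowest at ZT102, and these shares carry no test.

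**Figure D4:**
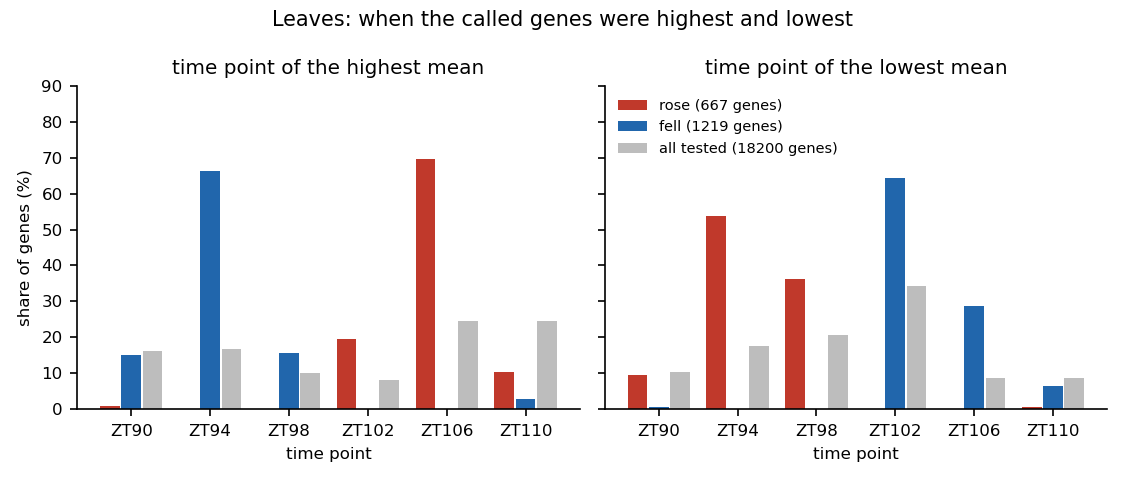
Bars give the share of genes (vertical axis, %) whose mean log2(FPKM + 1) in leaves was highest (left) or lowest (right) at each of the 6 time points, for 667 genes that rose, 1219 that fell and all 18200 tested. Risers peak mostly at ZT106 (69.6%) and genes that fell mostly at ZT94 (66.4%).

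Whether the leaf change differed from that of the shoot apex over the same 4 h was tested directly. Of 19986 genes, 75 changed more positively in leaves (0.375%) and 337 more negatively (1.69%) at a limma adjusted p under 0.05, and 351 of these were also called within leaves. These calls depended on the fit: none was made in either direction without the replicate block, where 1626 genes had an unadjusted p under 0.05 against 3128 with it, and a block shared by both tissues gave 4 and 12. Of the 21 ribosome and nucleolus genes 15 differed between the tissues, all more negative in leaves, as did 103 of the 348 ribosomal protein genes. The median change of the 348 was -0.42 in leaves and 0.07 in the shoot apex. Their share of FPKM in the shoot apex was 13.0% and 12.5% at ZT98 and 13.1% and 13.4% at ZT102. NOP56 differed by -0.86 (adjusted p = 0.0133) and FIB1 by -0.71 (adjusted p = 0.019). Without 1 of the 8 libraries, the counts ranged from 0 to 31 and from 0 to 205, with both at 0 without leaves ZT102 replicate 1, where 2578 genes had an unadjusted p under 0.05. The largest counts, 31 and 205, came without shoot apex ZT102 replicate 1. None of the tested genes of the 3 clock lists (14, 15 and 14) differed between tissues by this limma test, with 4, 7 and 4 at an unadjusted p under 0.05, which does not show that they acted alike.

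**Figure D5:**
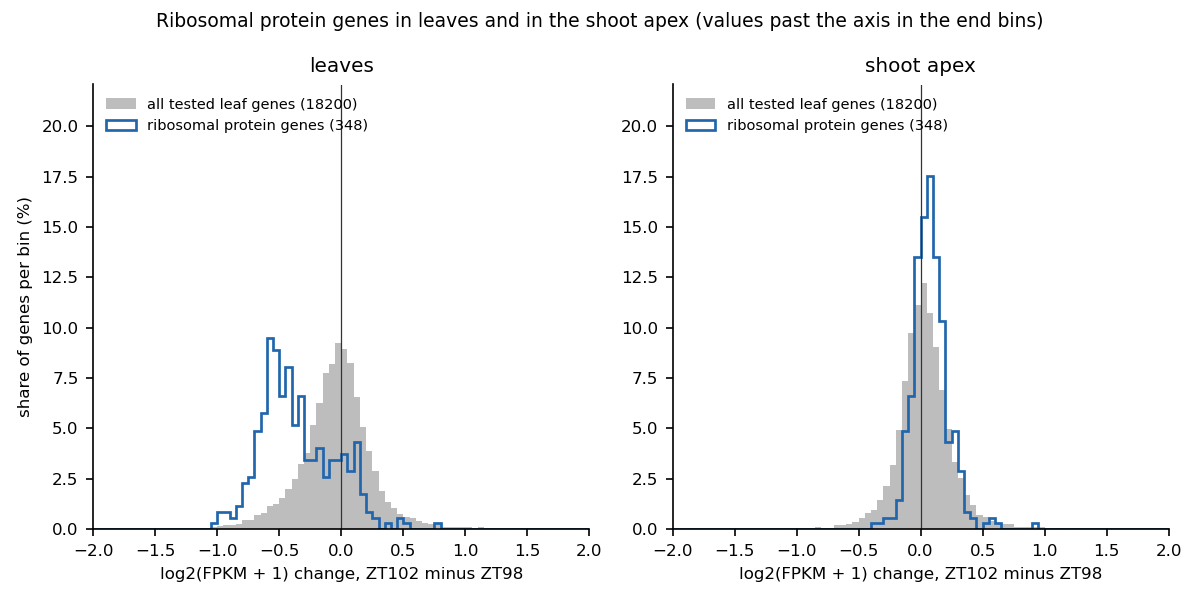
Share of genes (vertical axis, %) by log2(FPKM + 1) change from ZT98 to ZT102 (horizontal axis) in leaves (left) and the shoot apex (right), for all 18200 genes tested in leaves (grey) and the 348 genes matched as ribosomal protein genes by product name (blue line). The ribosomal protein genes lie to the left of the others in leaves, with a median of -0.42, while in the shoot apex they lie near 0, at a median of 0.07.

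Genes of other kinds also differed between tissues by this test. FLS1 fell by a log2 2.18 ± 0.25 in leaves and had a change of -0.08 in the shoot apex, a difference of -2.10 (limma adjusted p = 0.0126). ERD3, annotated as a methyltransferase superfamily protein, went from 9.82 and 7.98 to 20.8 and 24.6 FPKM in leaves, a difference of 1.19 (adjusted p = 0.016). ABCB19, an auxin transporter, rose by 0.59 ± 0.09 in leaves with a difference of 0.71, and WNK1, a kinase, by 0.999 ± 0.10 with a difference of 0.71. BAM3 fell in leaves and had a change of 0.47 in the shoot apex. Each call of a difference between tissues was lost without the block.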

How the data were processed

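RNA of shoot apex and leaves was sequenced as single-end 50 bp polyA libraries. FPKM values for 33323 genes were deposited by the authors. STAR 2.5.0c, HOMER and the build TAIR10 are listed in the submitters' processing notes. Their settings, the use of strand and the treatment of reads shared by gene copies are not given in the sources used here. In leaves 61 tested genes had the same values as another gene. A gene with a text cell (AT1G73170) was left out. Depth was estimated from the smallest steps between FPKM values.

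Genes with at least 1 FPKM in at least 2 of the 12 leaf libraries entered a limma fit (version 3.58.1 in R 4.3.3) of log2(FPKM + 1), with trended empirical Bayes moderation. P-values were adjusted after Benjamini and Hochberg and called under 0.05. The fit had 6 time points and the replicate number as a block. Such log2 changes understate those of low genes. The differences between replicate 1 and replicate 2 at one leaf time point correlated across genes with those at another at r = 0.567 to 0.78, over all pairs of time points, so the numbers pair the leaf libraries; the labels name 2 independent experiments. The p-values of the leaf fit measure the spread left over all 12 leaf libraries after the replicate block, moderated over all genes. Each group held only 2 libraries. The difference from the shoot apex was the interaction in all 24 libraries, with replicate within tissue as a block. Pairing by replicate number was checked in leaves only. Leaf and shoot apex libraries of one collection were not paired in this fit. The fits were tested on simulated data before use. The leaf fit recovered 32.3% of changes of log2 0.5 and 85.0% of log2 1, with 6 false calls. The fit of the difference recovered 28.7% and 75.0%, with 10 false calls, so many small changes are missed. In both simulations the changed genes were drawn only from genes above a set level, so recovery at low FPKM was not measured. The simulation of the difference held no replicate effect, unlike the leaf simulation. Its recovery and false calls therefore do not cover the replicate differences in the real libraries. Python 3.11.15, pandas 2.3.3, numpy 2.4.6 and matplotlib 3.10.9 were used. Rescaling divided each library by the median ratio of its genes to their geometric means.

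The comparison, the 27 lists (451 genes, 424 tested) and the alternatives were chosen with earlier results of these data known, and lists are described by counts and medians without a set test. Named were the 12 largest called rises and falls with one sign in both replicates and a mean of at least 10 FPKM at the higher time point, all tested clock genes, up to 5 called members of each other list with the smallest adjusted p and up to 4 called against its majority, and the 6 genes with the smallest adjusted p for a difference from the shoot apex in each direction with a mean of at least 10 FPKM in both tissues. ISA3, SEX4, PHS1, DPE2, LDA, UGT78D1, UGT78D2, PAL1, DFR, LDOX, MYBL2, COR15B, KIN2, RBCS1A, CA1, FIB2, PES, AT5G27120, AT5G24490, RPL3P, genes given only as not called, and the product-name groups were chosen after their values were seen. Gene names, products and promoters are from RefSeq (TAIR10.1).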

Additional observations from a re-analysis of the deposited data

Results flagged for a closer look

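The change from ZT98 to ZT102 differed between leaves and shoot apex, by the limma test of the difference itself, in 28 named genes. None of these calls was made in a fit without the replicate block, and explanations were not tested. Some of the 28 were named for their small adjusted p in this same test, which fixes part of the count. Over all 19986 genes, 0.375% changed more positively in leaves and 1.69% more negatively. Values are log2 changes in leaves minus those in the shoot apex.

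The genes named here were chosen by list, by size of change in leaves and by smallest adjusted p. Over all 337 genes more negative in leaves, 103 have a ribosomal protein in their product name. That group holds 348 of the 18200 genes tested in leaves. The differences were -0.86 for NOP56, -0.60 for RPS6A, -0.71 for FIB1, -0.76 for RPL23AB and -0.60 for RPL5A. Among ribosomal proteins named only by locus, AT5G22440 (L1p/L10e family) differed by -0.998, AT1G77940 (L7Ae/L30e family) by -0.86, AT3G02560 (S7e family) by -0.71 and AT3G14600 (L18ae family) by -0.68. OLI2, a methyltransferase superfamily gene, differed by -0.83. The shoot apex changes of these 10 genes lay between -0.10 and 0.27.

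The flavonol synthase gene FLS1 differed by -2.10, the calcium-binding protein gene AT5G49480 by -1.18, the beta-amylase gene BAM3 by -0.96, AO of NAD synthesis by -0.89, the phytochrome-interacting family gene UNE10 by -0.84 and the expansin gene EXPA10 by -0.62.

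The more positive differences among the named genes were 1.17 for IAA29, 0.76 for the auxin exporter PIN7, 0.71 for the auxin transporter ABCB19, 0.53 for PHYA and 0.59 for AMY3. The overlapping genes AT5G23240 and AT5G23235 differed by 1.46 and 1.54, ERD3 by 1.19, the Sec14p-like gene AT1G72160 by 0.91, the vacuole protein gene AT4G33625 by 0.88, the kinase gene WNK1 by 0.71 and AT4G05150, a Phox/Bem1p family gene, by 0.62.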

How the results depend on the processing

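Leaving out the replicate block lowered the leaf counts to 280 genes that rose and 593 that fell, and the counts of genes that differed from the shoot apex to 0 and 0; a block shared by both tissues gave 4 and 12, and rescaling gave 140 and 247. With a library left out in turn, the leaf counts ran from 237 to 722 up and 464 to 1362 down, and those of the difference from 0 to 31 and 0 to 205. The leaf counts stayed within 1.5 times with robust variances, a pseudocount of 0.1, either other filter, rescaling or the 4 libraries alone. The median log2 change of all genes was -0.0078 without a filter, 0.0082 after rescaling and -0.0529 to -0.0093 with a library left out.

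Among the named genes, direction turned only for 3 that were not called. The log2 change of PRR9 was 0.0263 after rescaling and from -0.118 to 0.0912 with a library left out, the log2 change of AT5G52660 ran from -0.2416 to 0.0386 and the log2 change of CO from -0.0379 to 0.1365. Of 118 named called genes, 91 kept their call without the block, 111 after rescaling, 103 without a filter and 116 with the 4 libraries alone; 29 to 39 lost it when a ZT98 or ZT102 library was left out and 2 to 8 for another leaf library. With 2 libraries a group and 11300000 to 14800000 estimated reads in each of the 4 libraries, small changes and genes of low FPKM are the least certain.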
